A study of Mus musculus with 7 samples.

Results

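The ADAM, ADAMTS, MMP and TIMP genes comprise the membrane-bound and secreted metalloproteases that cut cell surface and matrix proteins, together with the inhibitors that hold them in check. They were selected by symbol alone, as every mouse gene whose symbol is Adam, Adamts, Adamtsl, Mmp or Timp followed by a number and at most 1 letter. Of the 49315 gene identifiers in the count tables, 48970 had a symbol and 84 fell into the 4 families. These were 33 ADAM genes, 24 ADAMTS genes (19 ADAMTS and 5 ADAMTS-like), 23 MMP genes and 4 TIMP genes.

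RNA had been obtained from primary oligodendroglia, isolated from the brains of newborn mice by shaking them off mixed glial cultures and removing microglia, and then kept for 6 days in SATO medium, a culture medium with the thyroid hormones T3 and T4 in which oligodendrocyte precursor cells (OPCs) differentiate. The comparison set 3 libraries from KLF13-deficient mice against 4 libraries from wildtype controls. KLF13 is a zinc-finger transcription factor that binds GC-rich DNA. Its gene was deleted constitutively, so that the mixed glial cells on which the precursors grew lacked it as well, and the labels call the libraries of a group biological replicates without naming the animals behind them.

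Klf13 itself gave normalized counts of 10920, 11770, 12000 and 10670 in the 4 controls, whereas the 3 knockouts had 802, 876 and 961. Knockout levels were thus 7.76% of control levels, and every library matched its label. Normalized counts are read counts scaled to the mean effective library size. Each library held 24507471 to 59596479 counts on genes, of which 6.03% to 17.9% lay on 3 genes that collect ribosomal RNA reads.

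Markers of oligodendrocytes were abundant in all libraries, but their summed normalized counts fell from 1162000 to 1337000 in the controls to 375700 to 431300 in the knockouts, and 7 of 10 passed the test towards lower. The OPC list lay at 136300 to 145700 in controls and at 171600 to 173100 in knockouts, without overlap, and 2 of its 6 genes passed towards higher (1 of 6 with the replicate number as a block). Transcripts of other cell types were present as well. Fibroblast and mural cell markers summed to 78270 and 62620 in control replicates 3 and 4, to 23500 and 18230 in control replicates 1 and 2, and to 8154 to 19030 in the knockouts. Microglia markers reached 84900 in control replicate 3, against 17900 to 38730 in the other 6 libraries. The astrocyte list rose from 147700 to 168000 in the controls to 223500 to 253900 in the knockouts, with 7 of 8 genes passing towards higher (6 with the block, and S100b then lower), and the neuron list lay at 21270 to 30920 and 27220 to 40250, with 8 of 9 tested genes passing towards higher (7 with the block, and Elavl3 then lower). Elavl3, the neuron list gene with the highest counts, went from a mean of 18670 in controls to 13590 in knockouts, against the direction of the 8. No gene of any marker list was at 0 in all libraries. The part of these differences in the results below was not tested, and values without control replicates 3 and 4 are given beside the members described below where they ended a call or moved the fold by more than 1.5 times.

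ADAM proteins (a disintegrin and metalloprotease) are mostly transmembrane sheddases, which release the outer parts of growth factors, adhesion molecules and receptors. ADAMTS proteins are secreted, carry thrombospondin repeats and act on matrix proteins such as the lecticans and procollagens, whereas the ADAMTS-like proteins resemble them without a protease domain. MMPs are secreted or membrane-anchored and are kept inactive by a propeptide until it is cut away. TIMPs block the active sites of these proteases. In the nervous system, these proteins are known for processing amyloid precursor protein, Notch and neuregulins, and for turning over the chondroitin sulfate proteoglycan matrix around oligodendroglial cells and axons.

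The active site of these proteases is a zinc-binding motif of 11 residues, in which 3 histidines hold the metal. A translation of the longest GENCODE M21 coding sequence of each gene contained the motif in 44 of the 59 members that could be tested for a change. All 16 tested MMP genes carried it, as did 18 of 23 tested ADAMTS genes, 10 of 16 ADAM genes and 0 of 4 TIMP genes. The 5 ADAMTS genes without it were the ADAMTS-like genes. The coding bases of the motif are shown for 10 of the 11 members with the motif whose transcript levels differed between the groups, because they set the proteases apart from the non-catalytic members among the changed genes and show a split within the ADAMTS family. Capitals mark the codons of the 3 histidines and, before the last histidine, the codon of the variable turn residue. All are read 5′ to 3′ on the coding strand.

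Adamts4: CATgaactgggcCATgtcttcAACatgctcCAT
Adamts1: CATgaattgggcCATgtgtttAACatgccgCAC
Adamts15: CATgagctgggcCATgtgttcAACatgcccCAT
Adamts3: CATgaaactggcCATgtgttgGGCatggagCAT
Adamts7: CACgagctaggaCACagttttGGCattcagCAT
Adam12: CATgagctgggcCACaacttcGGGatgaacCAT
Adam19: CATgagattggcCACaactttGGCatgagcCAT
Mmp13: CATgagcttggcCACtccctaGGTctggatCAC
Mmp15: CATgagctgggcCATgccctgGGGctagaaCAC
Mmp24: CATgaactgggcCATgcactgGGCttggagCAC

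On GRCm38, these stretches lie at chr7:133961158-133961190 for Adam12, chr11:46125050-46125082 for Adam19, chr9:7276573-7276605 for Mmp13, chr8:95368585-95368617 for Mmp15 and chr2:155807427-155807459 for Mmp24, each within 1 exon. In the ADAMTS genes an intron splits the motif, so that the 33 bases extend over chr1:171253210-171253915 for Adamts4, chr16:85799191-85799545 for Adamts1, chr9:30911255-30911690 for Adamts15, chr5:89707433-89707818 for Adamts3 and chr9:90179456-90180640 for Adamts7. The turn residue was glycine in 38 of the 44 members. Asparagine took its place in 5, which were Adamts1, Adamts4, Adamts9, Adamts15 and Adamts20. This branch held members that changed in opposite directions, as Adamts1 and Adamts4 fell and Adamts15 rose. Of the 44 tested members with the motif, 6 were lower and 5 higher in the knockouts, where 12.2% of all tested genes were lower and 11.6% higher. Of the 15 without it, 3 were lower (Adam11, Adamtsl4 and Timp1) and 1 was higher (Adamtsl1). Both groups of members thus passed about as often as all genes.

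Transcripts of 73 of the 84 members were detected, meaning that at least 1 read fell on the gene in at least 1 library. The other 11 had a count of 0 in all 7 libraries. They were 9 ADAM genes (Adam6a, Adam6b, Adam24, Adam25, Adam26a, Adam26b, Adam29, Adam34 and Adam39), most of which are known from testis, and the enamel protease gene Mmp20 and the epithelial matrilysin gene Mmp7. A count of 0 allows up to 3 counts, or 0.0503 to 0.122 CPM (counts scaled to library size) depending on the library, and this limit covers counting error only. A further 14 members had too few counts for a test. The highest counts among them belonged to Adam3 (2 to 19 per library), Mmp21 (2 to 19), Mmp10 (0 to 18), Adam1b (2 to 8) and Adamts13 (0 to 7).

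The remaining 59 members entered the comparison, namely 16 ADAM, 23 ADAMTS, 16 MMP and 4 TIMP genes. Detection thus differed between the families, with 24 of 33 ADAM genes, 24 of 24 ADAMTS genes, 21 of 23 MMP genes and 4 of 4 TIMP genes having a count. Levels of different genes were compared as RPKM, in which counts are scaled to exon length and library size. Averaged over the 7 libraries, Timp2 was highest at 96.3, followed by Adam9 at 55.8, Adamts4 at 47.4, Adam10 at 36.4, Mmp15 at 35.2, Adam11 at 28.1 and Timp3 at 21.9. Each family therefore had a prominent member, but the order shifted with the genotype. Adamts4 stood at 69.5 ± 9.02 RPKM (SD, n = 4) in controls, which was above Adam9 at 61.5 ± 8.81 by less than the spread within the groups. In knockouts Adamts4 was at 17.8 ± 1.92 (SD, n = 3) and Adam9 at 48.2 ± 2.52.

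Summed over its members, the mean RNA level per exon length of every family was lower in the knockouts. The ADAMTS sum differed most and went from 97.3 ± 10.2 RPKM in the controls (SD, n = 4) to 39.1 ± 1.42 in the knockouts (SD, n = 3), which was 40.2% of the control level. The ADAM sum went from 202 ± 29.9 to 154 ± 8.98, the MMP sum from 73.3 ± 14.4 to 58.0 ± 2.41, and the TIMP sum from 157 ± 38.6 to 114 ± 5.93. These were 76.5%, 79.2% and 72.4% of control levels. The groups overlapped for the MMP sum, at 58.9 to 91.5 in controls and 56.4 to 60.8 in knockouts, but not for the other 3. Without control replicates 3 and 4, the knockout means were 85.5% of the control mean for ADAM, 40.4% for ADAMTS, 93.5% for MMP and 92.0% for TIMP. The sums are descriptions and were not tested. In the ADAMTS family, Adamts4 alone made up 69.4% to 73.8% of the sum in controls and 42.3% to 48.8% in knockouts. Without it, the family sum was 27.8 ± 1.60 in controls and 21.3 ± 0.601 in knockouts, or 76.8% of the control level. Within that remainder, Adamts1 went from 10.5 ± 1.06 RPKM in controls to 4.54 ± 0.631 in knockouts. Of the 23 tested ADAMTS genes, 13 had log2 fold changes above 0 and 10 below.

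**Figure D1:**
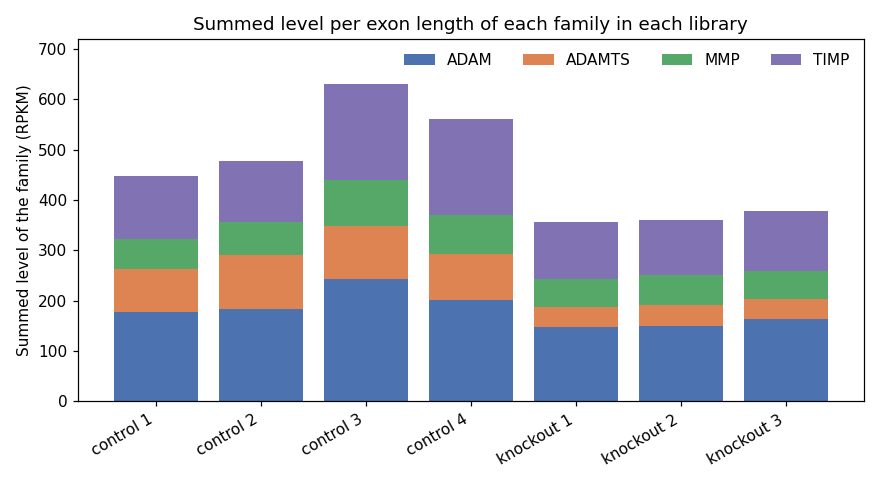
Summed RPKM (vertical axis) of the 4 families, stacked, in each of the 7 libraries (horizontal axis). The ADAMTS layer lies between 86.7 and 107 RPKM in the controls and between 38.1 and 40.8 in the knockouts, and the total is highest in control replicates 3 and 4, at 629 and 561.

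In the tests, 15 of the 59 members passed an adjusted p of 0.05, adjusted over all 18352 tested genes of the table. Of these, 9 were lower and 6 higher in the knockouts. Among all tested genes 12.2% were lower and 11.6% higher, so the members as a whole passed about as often as other genes. With the additional requirement of a log2 fold change of at least 1 in either direction, 6 of the 59 members were called lower and 3 higher. Among all tested genes these shares were 3.08% and 3.97%. The share of members called lower was thus above that of all genes at this threshold, and the difference was not tested. The median log2 fold change of the 59 members was -0.27, compared with -0.004 for all tested genes, and 37 were below and 22 above 0. Values of the 2 groups did not overlap for 25 members (42.4%), against 36.2% of all tested genes. As these are bulk samples, fewer cells of a type and less RNA per cell cannot be told apart.

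By family, the counts are read against the same shares of all tested genes, 12.2% lower and 11.6% higher. In the ADAM family, 3 genes were lower, 0 higher and 13 did not pass, with a median log2 fold change of -0.29. In the ADAMTS family, 3 genes were lower, 5 higher and 15 did not pass, with a median of 0.28. The MMP family had 2 lower, 1 higher and 13 that did not pass, with a median of -0.36, and the TIMP family had 1 lower, 0 higher and 3 that did not pass, with a median of -0.37. In all, 18.8% of the ADAM and of the MMP genes, 34.8% of the ADAMTS genes and 25.0% of the TIMP genes passed. Of the 6 higher members 5 were ADAMTS genes, and whether the families differ in direction was not tested. The counts of all 4 families were the same with DESeq2 size factors, upper quartile scaling or library sizes without the rRNA-collecting genes.

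**Figure D2:**
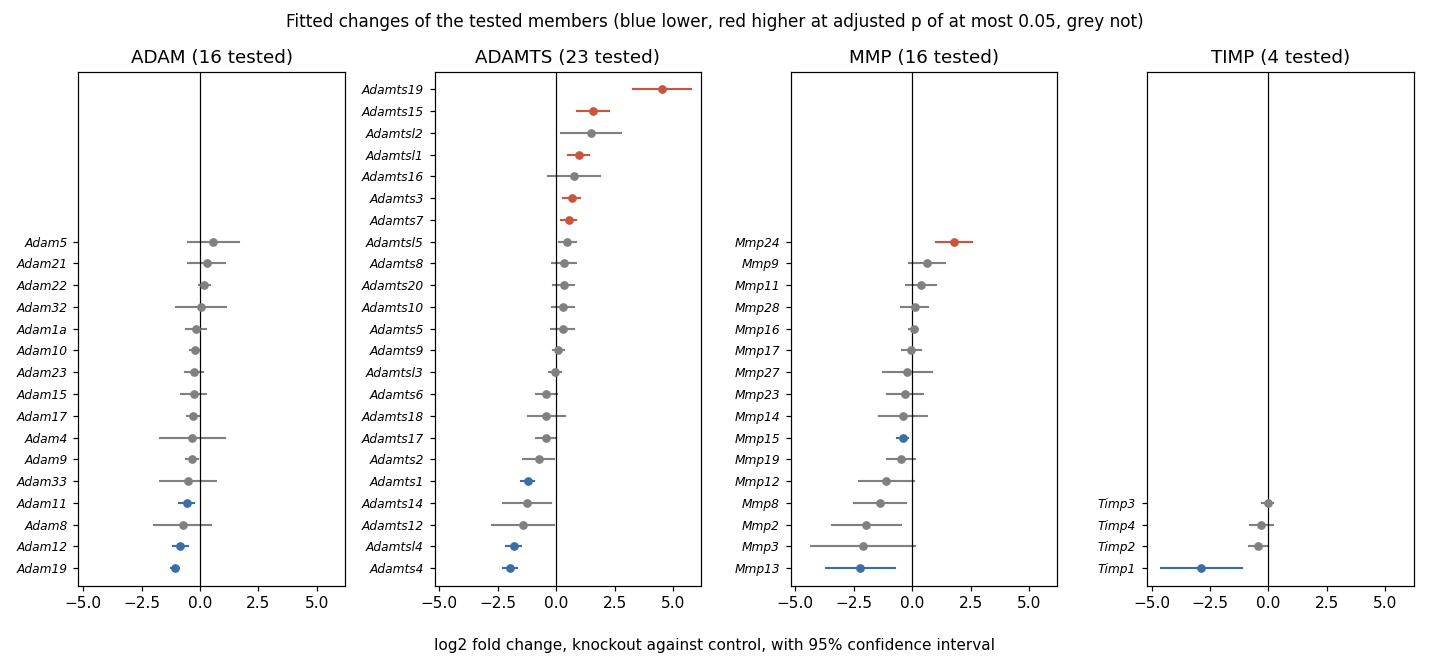
Log2 fold change of knockout against control (horizontal axis) for the 59 tested members, by family. Points are fitted values and lines 95% confidence intervals, with members that passed in blue (9 lower) or red (6 higher). The ADAMTS panel spans -1.96 to 4.53, the widest range of the 4.

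Among the ADAM sheddases, Adam19 changed most evenly (chr11:46055992-46147343). It encodes meltrin beta, which can shed neuregulin. Normalized counts were 1792, 1988, 2126 and 1887 in controls, compared with 924, 924 and 953 in knockouts. The knockout libraries lay close together and far below every control. Its log2 fold change was -1.06 (SE 0.073, adjusted p = 0.000158), and knockouts had 47.9% of the control level. A stretch of 10.1% of its exon bases also belongs to 2 unnamed antisense genes, and the strand setting of the counting is not given in the sources used here.

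Adam12, which encodes meltrin alpha and can release heparin-binding EGF, behaved likewise (chr7:133883199-134232146). The controls had normalized counts of 1813, 2049, 2562 and 2181 and the knockouts of 1193, 1041 and 1354. Each knockout lay below the lowest control, with a log2 fold change of -0.85 (SE 0.137, adjusted p = 0.00592).

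Adam11, Adam22 and Adam23 belong to a group of ADAM proteins that lack catalytic activity and serve as receptors for secreted LGI proteins at synapses and axons. Adam11 (chr11:102761439-102780262) gave normalized counts of 6763, 8321, 7904 and 9668 in controls and 5445, 6245 and 4768 in knockouts. All knockouts were below all controls, though the gap between the groups was small. Its log2 fold change was -0.57 (SE 0.137, adjusted p = 0.0228). The call was lost without knockout replicate 1 (adjusted p = 0.0818), without knockout replicate 3 (0.0790) and without control replicates 3 and 4 together (0.0832). Adam22 and Adam23 did not pass, with log2 fold changes of 0.19 (adjusted p = 0.217) and -0.25 (0.337).

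Besides Adam11, the most abundant ADAM genes were those of widely expressed sheddases. Adam9 had normalized counts of 9669, 10300, 13320 and 11210 in controls and 8814, 8226 and 9124 in knockouts, without overlap. Its log2 fold change of -0.35 (SE 0.112) did not pass (adjusted p = 0.0582). It passed by the DESeq2 Wald test (0.0350) and without the filter on low counts (0.0368). The log2 fold change was -0.20 without control replicates 3 and 4. Adam10, the main alpha-secretase of amyloid precursor protein and the sheddase of Notch, had 7742 to 9443 in controls and 6929 to 7490 in knockouts, also without overlap. Its log2 fold change was -0.23 (SE 0.077) with an adjusted p of 0.0689. For Adam17, which releases tumour necrosis factor and ligands of the EGF receptor, the values were 5076 to 6546 and 4266 to 5347, and the groups overlapped (log2 fold change -0.30, adjusted p = 0.0944). With the replicate number as a block, both Adam10 (0.0495) and Adam17 (0.0290) passed. Adam8, known from myeloid cells, had 8014 normalized counts in control replicate 3, the library with the highest microglia sum, against 1616 to 3479 in the other 6 libraries, and did not pass (95% confidence interval of the log2 fold change -1.95 to 0.48, and a value of -0.04 without control replicates 3 and 4).

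In the ADAMTS family, the 2 aggrecanases with the highest levels fell. Adamts4 (chr1:171250421-171260637) encodes aggrecanase 1, a protease of aggrecan, brevican and versican. Its normalized counts were 12890, 16750, 15890 and 13270 in controls and 3683, 4207 and 3408 in knockouts. The lowest control was thus far above the highest knockout, and no control stood apart from the others. Knockouts had 25.6% of the control level, with a log2 fold change of -1.96 (SE 0.125, adjusted p = 0.000109). It is the member with the smallest adjusted p.

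Adamts1 (chr16:85793827-85803113), an inflammation-inducible protease of aggrecan and versican, gave normalized counts of 2217, 2505, 2782 and 2326 in controls and 1150, 888 and 1135 in knockouts. Again all knockouts lay well below all controls. This gave a log2 fold change of -1.22 (SE 0.120, adjusted p = 0.00081).

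Adamtsl4 (chr3:95676201-95687917), whose product binds fibrillin microfibrils and has no protease domain, was less abundant but changed almost as strongly as Adamts4. The controls had normalized counts of 436, 521, 438 and 419, and the knockouts 128, 111 and 146. The groups were far apart compared with the spread within them. With a log2 fold change of -1.82, it passed clearly (SE 0.141, adjusted p = 0.000262).

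The 5 higher ADAMTS genes all had low levels. Adamts19, whose substrate is not well known, was nearly silent in controls, with normalized counts of 14.9, 6.03, 2.29 and 1.87, and reached 154, 148 and 115 in knockouts. Control replicates 3 and 4 had 2 raw counts each, which is within the 3 counts that a count of 0 allows. The log2 fold change of 4.53 (SE 0.530, 95% confidence interval 3.29 to 5.76, adjusted p = 0.00171) was the largest fitted value of the members tested. Adamts19 passed the filter on low counts through the knockout libraries, where it was high, and was not tested when every library had to hold at least 10 counts. Its log2 fold change was 5.31 without control replicate 1 and 3.77 without control replicates 3 and 4, and the level in knockouts was still only 0.676 ± 0.101 RPKM (SD, n = 3).

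Adamts15 (chr9:30899155-30922452), another protease of aggrecan and versican, had normalized counts of 63.5, 52.3, 46.9 and 27.1 in controls and 154, 156 and 113 in knockouts. All knockouts exceeded all controls, with a log2 fold change of 1.57 (SE 0.286, adjusted p = 0.00892). Adamtsl1 (chr4:85514172-86428385) encodes the ADAMTS-like matrix protein punctin. It gave 286, 397, 214 and 285 in controls and 612, 587 and 529 in knockouts, without overlap, and a log2 fold change of 0.96 (SE 0.195, adjusted p = 0.0129).

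Adamts3 and Adamts7 changed by less. Adamts3 (chr5:89677087-89883334), a procollagen N-proteinase, had normalized counts of 405, 387, 295 and 296 in controls and 495, 621 and 517 in knockouts (log2 fold change 0.66, SE 0.155, adjusted p = 0.0220). Adamts7 (chr9:90163069-90208071), a protease of cartilage oligomeric matrix protein, had 277, 300, 238 and 213 in controls and 356, 386 and 374 in knockouts (0.54, SE 0.137, adjusted p = 0.0287). For both genes the groups did not overlap, but control replicates 3 and 4 were the lowest. The call for Adamts3 was lost without knockout replicate 2 (adjusted p = 0.0848), and that for Adamts7 without control replicate 3 (0.0552), knockout replicate 1 (0.0584), knockout replicate 2 (0.0962) or knockout replicate 3 (0.0666), and with the replicate block (0.0561). Without control replicates 3 and 4 together, neither passed (0.0773 and 0.0920).

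Adamts17, the third most abundant ADAMTS gene, had normalized counts of 1060 to 1749 in controls and 898 to 989 in knockouts, and did not pass (log2 fold change -0.44, SE 0.180, adjusted p = 0.121). In total, 12 of the 23 tested ADAMTS genes had no overlap between the groups (52.2%, against 36.2% of all tested genes).

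**Figure D3:**
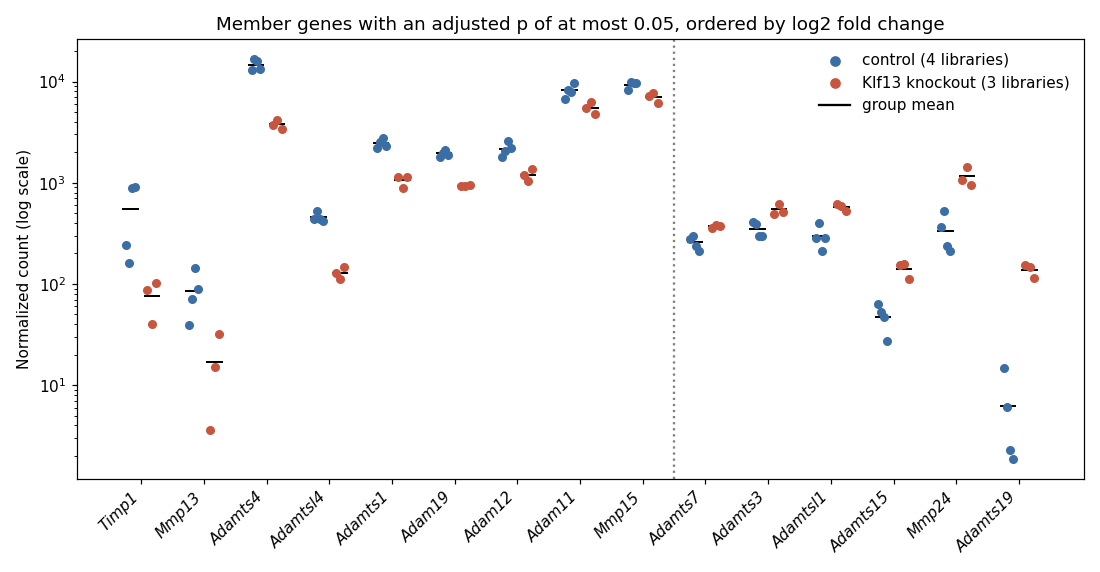
Normalized counts (vertical axis, log scale) of the 15 members that passed, ordered by log2 fold change along the horizontal axis. Points are libraries (4 control, 3 knockout) and bars are group means, and for each of the 15 genes the groups do not overlap. Adamts19, Timp1 and Mmp13 show a wide spread among controls, whereas Adamts4 and Adam19 do not.

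Membrane-type enzymes were the most abundant MMP genes. Mmp15 (chr8:95352268-95375080), encoding MT2-MMP, had normalized counts of 8224, 9803, 9672 and 9665 in controls and 7261, 7730 and 6090 in knockouts. Control replicate 1 was lower than the other 3 controls and came near the knockouts. The log2 fold change was -0.41 (SE 0.100, adjusted p = 0.0249). The call did not hold without control replicate 2 (0.0536), control replicate 4 (0.0552), knockout replicate 1 (0.0683) or knockout replicate 3 (0.0633), without control replicates 3 and 4 together (0.118), or with the replicate block (0.0517). Mmp14 (MT1-MMP, an activator of the precursor of MMP2) had 1121, 1174, 3827 and 1897 in controls and 1137, 1514 and 1893 in knockouts, and the groups overlapped (log2 fold change -0.40, SE 0.445, adjusted p = 0.569). Without control replicate 3 its log2 fold change was 0.12, and without control replicates 3 and 4 it was 0.40. Mmp16 (MT3-MMP) had 2025 to 2491 in controls and 2207 to 2492 in knockouts (0.05, SE 0.083, 95% confidence interval -0.14 to 0.25).

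Mmp24 (chr2:155775342-155818366) was the only higher MMP gene among the 16 tested. It encodes MT5-MMP, a membrane-type enzyme known from neurons that can cut N-cadherin. The controls gave normalized counts of 367, 526, 238 and 210 and the knockouts 1076, 1430 and 957. All knockouts were well above all controls, and control replicates 3 and 4 were the lowest. Knockouts had a 3.44-fold higher mean, with a log2 fold change of 1.79 (SE 0.324, adjusted p = 0.00904), and without control replicates 3 and 4 the log2 fold change was 1.36 (adjusted p = 0.0171). Of its exon bases, 13.6% are shared with an antisense gene (BC029722). In the neuron list beside it, the median log2 fold change was 1.80, and its part in the value of Mmp24 was not tested.

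Mmp13 (chr9:7272514-7283331), a collagenase, gave normalized counts of 39.2, 71.4, 143 and 88.9 in controls and 3.61, 15.1 and 32.0 in knockouts. The highest knockout came close to the lowest control. The log2 fold change was -2.22 (SE 0.630, adjusted p = 0.0409). The call was lost without control replicate 2 (0.0613), control replicate 3 (0.0668), control replicate 4 (0.0844), knockout replicate 1 (0.0905) or knockout replicate 2 (0.133), and without control replicates 3 and 4 together (log2 fold change -1.60, adjusted p = 0.175).

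Mmp2, the gelatinase A gene, had 378, 278, 1224 and 1356 normalized counts in controls and 237, 123 and 266 in knockouts. Control replicates 3 and 4 were far above the other 5 libraries, and the groups did not overlap, although the lowest control was close to the highest knockout. Its log2 fold change of -1.96 did not pass (SE 0.636, adjusted p = 0.0621) but passed with the replicate block (0.0317) and in the DESeq2 Wald test (0.00244), and without control replicates 3 and 4 it was -0.66 (0.271). Mmp3, which encodes stromelysin 1, had a log2 fold change of -2.10 and did not pass (adjusted p = 0.157, by DESeq2 0.0810) but did so with the block (0.0380). Without the 2 controls Mmp3 had -0.85 (0.680). Adamts14 did not pass (-1.26, 0.0777) but did so with the block (0.0495) and by DESeq2 (0.0145), and had -0.47 (0.354) without them. Adamts12 went from -1.42 (0.113, by DESeq2 0.0361) to -0.34 (0.655).

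Of the 4 inhibitors, only Timp1 passed (chrX:20870166-20874735). The controls had normalized counts of 242, 160, 887 and 913, and the knockouts 86.7, 39.9 and 102. Control replicates 3 and 4 were far above control replicates 1 and 2, but the latter still exceeded all knockouts. The log2 fold change was -2.87 (SE 0.741, adjusted p = 0.0304). Without control replicate 3 the adjusted p was 0.0504, without control replicate 4 it was 0.0658, and without each knockout in turn it was 0.0916, 0.108 and 0.0694. Leaving out both control replicates 3 and 4 gave a log2 fold change of -1.41 (adjusted p = 0.0785). Fibroblast and mural cell markers, summed, were highest in the same 2 controls. In that list 1 of 10 genes passed, towards lower (5 of 10 with the replicate block), and the median log2 fold change was -1.75, and its part in the value of Timp1 was not tested.

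Timp2, the member with the highest level, had normalized counts of 14880, 14920, 23360 and 21120 in controls and 13290, 13270 and 14660 in knockouts. The groups did not overlap, but control replicates 1 and 2 were nearly as low as the knockouts, and the change was not significant (log2 fold change -0.43, SE 0.174, adjusted p = 0.115, and -0.12 without control replicates 3 and 4). Timp3 stayed close to its control level, with 7279 to 9455 in controls and 7193 to 8022 in knockouts (-0.04, SE 0.103, 95% confidence interval -0.28 to 0.20). Timp4 had 2560 to 4695 in controls and 2455 to 2894 in knockouts (-0.31, SE 0.214, adjusted p = 0.356, and -0.08 without control replicates 3 and 4).

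Timp1, Timp3 and Timp4 lie within the synapsin genes Syn1, Syn3 and Syn2, on the opposite strand. Of the exon bases of Timp3, 21.3% also belong to Syn3, compared with 1.53% of Timp4 and 0% of Timp1. All 3 synapsin genes rose, with log2 fold changes of 0.88 for Syn1 (adjusted p = 0.0190), 0.53 for Syn3 (0.0374) and 0.84 for Syn2 (0.00673). Timp1 thus fell where its host gene rose, while Timp3 and Timp4 did not pass, and a share of Syn3 reads in the Timp3 count was not tested.

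**Figure D4:**
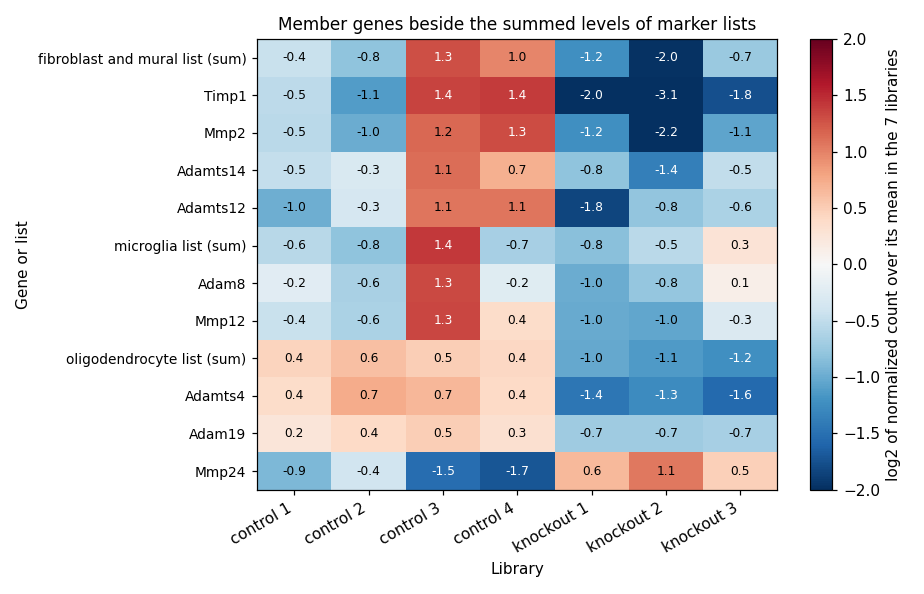
Log2 of the normalized count over its mean in the 7 libraries, for 9 members and the sums of 3 marker lists (rows) in each library (columns). The colour scale ends at 2 in either direction. Timp1, Mmp2, Adamts14 and Adamts12 are highest in control replicates 3 and 4, as the fibroblast and mural sum is. Adam8 and Mmp12 are highest in control replicate 3, as the microglia sum and the fibroblast and mural sum are. In control replicate 4, Adam8 is at -0.24, Mmp12 at 0.36, the microglia sum at -0.66 and the fibroblast and mural sum at 0.97. Adamts4 and Adam19 separate the groups as the oligodendrocyte sum does.

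Of the 15 members that passed, 9 kept their call when any of the 7 libraries was left out. These were Adam12, Adam19, Adamts1, Adamts4 and Adamtsl4 towards lower, and Adamts15, Adamts19, Adamtsl1 and Mmp24 towards higher, with Adamts19 nearly absent from controls. They also passed with the replicate block and without control replicates 3 and 4. For the oligodendrocyte list the median log2 fold change was -1.39 in the same libraries, and its part in the values of Adamts4, Adamts1 and Adam19 was not tested.

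Regulators and substrates of the proteases were looked at in lists, whose counts stand against the 12.2% lower and 11.6% higher among all tested genes. Of 14 tested scaffolds and partners of the sheddases, 7 were lower and 0 higher, with a median log2 fold change of -0.45. The tetraspanins Tspan15 and Tspan14, which escort ADAM10 to the cell surface, had log2 fold changes of -1.10 (adjusted p = 0.000710) and -0.33 (0.0105). Cd44, a docking site for MMPs, had -1.22 (0.0280), and the integrin subunit gene Itgav had -0.63 (0.0205). Tspan10, Rhbdf1 and Itgb3 were the other 3.

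Of 11 tested genes of the plasmin system and the proprotein convertases, which activate MMP and ADAM precursors, 3 were lower and 2 higher. The plasminogen activator gene Plat had a log2 fold change of -0.41 (adjusted p = 0.00787) and the convertase gene Pcsk7 had -0.32 (0.0274, and 0.0516 with the replicate block). A2m, encoding a broad protease inhibitor, was higher by 0.70 (0.0467), and so was Serpinf2 (with the block 0.0540). Plau and Plaur did not pass but did so with the block. A convertase motif was searched as RXKR or RXRR (X is any residue) anywhere in the translated protein. It matched in 13 of the 16 ADAM, 19 of the 23 ADAMTS, 9 of the 16 MMP and 0 of the 4 TIMP genes tested. A match does not show a cleavage site, and Adamtsl3 and Adamtsl4, which have no protease domain, matched as well. For the cysteine switch of the MMP propeptide, the exact string PRCGXPD was present in 11 of 16 MMP genes. Variant forms of the switch were not searched.

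Matrix substrates of the ADAMTS aggrecanases, 13 tested genes of lecticans and their partners, held 2 lower and 1 higher. Vcan, which encodes the OPC-enriched lectican versican, had normalized counts of 18250 ± 1873 in controls (SD, n = 4) and 25890 ± 1974 in knockouts (SD, n = 3), a log2 fold change of 0.50 (adjusted p = 0.00991). Hapln2, the link protein gene of nodes of Ranvier, fell from 522 ± 150 to 62.0 ± 6.51 (-3.08, adjusted p = 0.000349), and the fibroblast proteoglycan gene Dcn had -3.05 (0.0437). Bgn and Fn1 did not pass but did so with the replicate block.

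Among 34 genes of membrane proteins cut by ADAMs or MMPs, 8 were lower and 5 higher, with a median log2 fold change of -0.03. Of those that passed, the 4 with the highest normalized counts over the 7 libraries, which are not scaled to length, were App, encoding the amyloid precursor protein, at -0.81 (adjusted p = 0.00897), the myelin-associated glycoprotein gene Mag, also an oligodendrocyte marker, at -2.69 (3.3e-05), Aplp1 at -1.38 (0.00226) and the adhesion molecule gene Ncam1 at 0.37 (0.0260). The others were Aplp2, Jag1, Btc, Ereg and Areg towards lower, with Ereg not passing under the replicate block (0.0877) and Notch3 passing there, and Jag2, Cx3cl1, L1cam and Efnb2 towards higher. Of the 4 LGI genes, whose products bind ADAM11, ADAM22 and ADAM23, Lgi3 fell from 6060 ± 404 to 2851 ± 110 (log2 fold change -1.09, adjusted p = 0.000108) and Lgi1 rose from 115 ± 78.2 to 468 ± 75.4 (2.03, adjusted p = 0.0291), while Lgi2 did not pass without the block. Lgi3 and Lgi1 thus changed in opposite directions, while only Adam11 passed among the 3 receptors.

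Among 10 tested metalloproteases of other families, 4 were lower (Ece1, Bmp1, Pappa and Tll2) and 1 was higher (Nln). Ece1, the endothelin-converting enzyme gene, had a log2 fold change of -0.34 (adjusted p = 0.00389), the procollagen C-proteinase gene Bmp1 had -0.56 (0.00885), Pappa had -1.49 (0.0370) and Nln, encoding neurolysin, had 0.65 (0.00892).

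KLF13 binds GC boxes and CACCC boxes, and both were searched as GGGCGG and CACCC on either strand in the RefSeq windows of 250 bases before to 50 after each start site (GRCm38.p6). Of the 84 members, 53 had a window. The GC box was present in 46.6% of the windows of members, against 35.7% of all windows, and the CACCC box in 75.9% against 57.5%. These shares were 61.0% and 82.9% for tested members and 11.8% and 58.8% for members that were not tested. Windows of tested members were also richer in GC, at a median of 63.7% against 52.7%. Among the 8 windows of 6 lower members 62.5% held a GC box and 100% a CACCC box, and both boxes were present in the 2 windows of 2 higher members. A match is a description of these letters and not a binding site. The upstream 250 bases are shown for the 3 members with a window whose fold changes were largest among those that kept their call whichever library was left out, a choice made with the values known, with both boxes in capitals on whichever strand they match.

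Adamts1: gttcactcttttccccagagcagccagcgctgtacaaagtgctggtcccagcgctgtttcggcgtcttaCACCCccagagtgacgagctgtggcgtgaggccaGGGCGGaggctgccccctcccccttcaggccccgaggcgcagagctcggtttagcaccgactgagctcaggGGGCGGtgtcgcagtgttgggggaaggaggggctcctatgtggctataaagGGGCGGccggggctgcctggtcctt
Adamtsl4: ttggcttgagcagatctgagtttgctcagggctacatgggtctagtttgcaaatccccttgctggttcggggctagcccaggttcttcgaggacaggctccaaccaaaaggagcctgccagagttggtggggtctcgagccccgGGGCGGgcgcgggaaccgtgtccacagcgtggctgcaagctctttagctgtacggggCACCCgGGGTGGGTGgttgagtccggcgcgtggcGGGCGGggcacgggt
Mmp24: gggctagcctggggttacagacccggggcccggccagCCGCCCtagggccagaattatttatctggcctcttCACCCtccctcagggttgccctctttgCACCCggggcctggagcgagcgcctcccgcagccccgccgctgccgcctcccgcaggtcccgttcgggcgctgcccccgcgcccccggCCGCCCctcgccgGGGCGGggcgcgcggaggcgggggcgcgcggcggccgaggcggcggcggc

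These stretches lie at chr16:85803114-85803363 on the minus strand for Adamts1, chr3:95687918-95688167 on the minus strand for Adamtsl4 and chr2:155775092-155775341 on the plus strand for Mmp24, and are written in the direction of transcription. The counts of GC and CACCC boxes were 3 and 1 for Adamts1, 2 and 3 for Adamtsl4 and 3 and 2 for Mmp24. Promoters of genes that fell and of the gene that rose thus both carried the 2 boxes.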

How the data were processed

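RNA-seq libraries of 4 wildtype control and 3 KLF13-deficient oligodendroglial cultures were used. The deposited values are whole-number counts per gene, which the authors obtained by trimming (Trimmomatic 0.36), mapping to GRCm38 (STAR 2.5.2b) and counting unique exon hits with featureCounts (Subread 1.5.2), per the labels and the study's methods. The deposited exon length per gene was used for RPKM. Strand setting and annotation release are not given in the sources used here, so overlapping genes are uncertain.

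The test was that of edgeR 4.0.16 in R 4.3.3 (filterByExpr, TMM, robust quasi-likelihood F test, group as the only term, two-sided). P-values were adjusted by Benjamini-Hochberg over 18352 genes, and a gene passed at 0.05. Normalized counts and RPKM use TMM-scaled library sizes, and SE is the absolute log2 fold change over the root of F. The fit was tested on simulated data. P-values measure only the spread between these libraries.

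Members, lists and the rule for named genes were chosen with earlier results of these data known. The rule names each member that passed, the 3 members per family with the highest RPKM, and the passing genes of each list, with values for at most 4. The values of 1 listed gene are not reported here. Other members were named after their values were seen, and so was the relaxed form of the zinc motif, since the form with glycine alone missed ADAMTS genes. Coding sequences came from GENCODE M21 and promoter windows from RefSeq.

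Deviations from the group means correlated at 0.113, 0.463 and 0.168 in the 3 pairs of equal number across the groups, and at -0.529 to 0.197 between different numbers, across genes, which are not independent replicates. Each pair of equal number met the rule of exceeding 0.1, and the number was also fitted as a replicate block. The lowest value of an equal-number pair, 0.113, lay below the highest between different numbers, 0.197, so the pairing is uncertain. What same-numbered libraries share is not given in the sources used here.

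Alternatives were DESeq2 1.42.0 (Wald test and size factors), upper quartile scaling, library sizes without rRNA-collecting genes, no filter or at least 10 counts in every library, the block, each library left out, and control replicates 3 and 4 left out.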

Additional observations from a re-analysis of the deposited data

Results flagged for a closer look

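Among the control values of the 23 named members, 1 library stood apart from the other 3 by more than Dixon's 95% critical value for 4 samples. This was Mmp15 in control replicate 1, at 8224 normalized counts against 9665, 9672 and 9803 in the other controls, a gap of 0.912 of the range. Chance marks about 1 in 20 such groups. Mmp15 did not overlap between the groups in spite of this low control. The knockout group, with 3 libraries, is too small for the same comparison.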

How the results depend on the processing

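The counts of lower and higher members were 9 and 6, and both were the same with DESeq2 size factors, upper quartile scaling and library sizes without rRNA-collecting genes. Shares of all tested genes are given for the main fit only, so the shifts under other settings cannot be set against those of all genes. The DESeq2 Wald test gave 13 and 8, with 5 lower ADAMTS genes in place of 3, and gained Adam9, Adamts12, Adamts14, Adamtsl2, Adamtsl5 and Mmp2. The replicate block gave 13 and 5, with 5 lower ADAM genes in place of 3, and turned the log2 fold change of Timp3 to 0.053. Control replicate 4 has no partner in the block and adds nothing to these fold changes. With the block Adamts7 and Mmp15 were lost and Adam10, Adam17, Adamts14, Mmp2 and Mmp3 were gained. Without the filter, ADAM genes lower were 4, since Adam9 passed (adjusted p = 0.0368), MMP genes lower were 1 and TIMP genes lower 0. With at least 10 counts in every library, MMP genes lower were 1 and ADAMTS genes higher 4, since Mmp13 and Adamts19 were not tested there. Leaving out 1 library at a time gave 5 to 10 lower and 4 to 6 higher members, 3 to 5 higher ADAMTS genes, 0 to 2 lower MMP genes and 0 to 1 lower TIMP genes. Without control replicates 3 and 4 together, 5 members were lower and 4 higher, with 3 higher ADAMTS genes and no lower MMP or TIMP gene (0 each). The log2 fold change of Mmp14 was then 0.402 and that of Timp3 0.037. With 1 library left out, Mmp14 ranged from -0.589 to 0.117, Mmp16 from -0.001 to 0.120 and Timp3 from -0.082 to 0.075. The cause of these shifts was not tested. Over all named members and alternatives, 302 values kept direction and side of the threshold, 31 no longer passed, 3 newly passed and 7 turned. The rarest members could not be judged, since 14 detected genes had too few counts for a test.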

Other observations

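Several members lie next to each other in the genome. The largest group is that of 10 MMP genes at chr9:7272514-7699585, of which 5 were tested (Mmp3, Mmp8, Mmp12, Mmp13 and Mmp27) and 2 had no count. All 5 had log2 fold changes below 0, from -2.22 for Mmp13 to -0.22 for Mmp27, and only Mmp13 passed. Mmp3, Mmp8 and Mmp13 met the filter on low counts through the controls, where they were higher, so their direction is not independent of the filter. Mmp12, which encodes the macrophage elastase, was the most abundant of them, with normalized counts of 446, 392, 1535 and 781 in controls and 302, 295 and 495 in knockouts (log2 fold change -1.11, adjusted p = 0.155). It was highest in control replicate 3, which also had the highest microglia sum and the highest fibroblast and mural sum. Without control replicates 3 and 4 the log2 fold changes were -1.60 for Mmp13, -0.85 for Mmp3, -0.20 for Mmp12 and 0.22 for Mmp27, and Mmp8 was not tested. Adamts1 fell, whereas Adamts5, the other gene at chr16:85793827-85901125, had a log2 fold change of 0.28 (adjusted p = 0.395). Adamts15 rose, and its neighbour Adamts8 at chr9:30899155-30963838 had 0.33 (adjusted p = 0.345). Whether neighbours differ in their change was not tested.

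Clustered ADAM genes of chromosome 8 differed in detection. Of 4 at chr8:40675077-40827037 and 3 at chr8:43519762-43710049, 3 in each stretch had no count and 0 were tested. Of 5 at chr8:24602246-25016927, each had a count and 3 were tested (Adam5, Adam9 and Adam32), and Adam9 was the abundant one, with 55.8 RPKM.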
